A study of Mus musculus with 8 samples.

Results

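The genes described here are 43 markers of myeloid cells, the immune lineage of macrophages, dendritic cells and neutrophils. They were listed by name as known markers, with earlier results of these data known. Values were present for 42 of the 43, out of 15948 genes in the table. Timd4, a phosphatidylserine receptor of long-lived resident macrophages, was not analysed here.

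The values come from messenger RNA of 8 whole mouse kidneys. The Arhgef11Sglt2 DOCA group (n = 3) is the proximal tubule knockout of Arhgef11 named by the study's title, and the Sglt2Cre DOCA group (n = 5) is its control. Sglt2Cre denotes Cre recombinase driven by the promoter of Sglt2, a glucose transporter of early proximal tubule cells, so neither construct was directed at myeloid cells. Kidneys of both groups carried the label DOCA, deoxycorticosterone acetate, a mineralocorticoid used to raise blood pressure, so each comparison lies within DOCA treatment. The sources used here give neither strain, sex nor age, and neither the Arhgef11 allele nor the dose and duration of DOCA. The study asked how loss of Arhgef11 bears on hypertension and kidney injury.

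Kidney macrophages depend on CSF1R, a receptor tyrosine kinase with the ligands CSF1 and IL-34, both of which tubule cells can make. The transcription factor PU.1, encoded by Spi1, sets the myeloid program and is needed for CSF1R, Fc receptors and integrins. After tubule injury, neutrophils and monocytes can enter the kidney, and macrophages can take up debris and lipid. In bulk kidney RNA, fewer cells of a type and less RNA per cell cannot be told apart.

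Library totals were 43040000 to 46680000 normalized counts, and the depth estimated from the spacing of low values was 51400000 to 57900000 reads in Arhgef11Sglt2 libraries and 33000000 to 59500000 reads in Sglt2Cre libraries. Arhgef11 itself had 2935, 3919 and 3905 normalized counts in Arhgef11Sglt2 replicates 1, 2 and 3, against 3479 to 3928 in Sglt2Cre kidneys, so the whole-gene value did not separate the labels and directions refer to libraries as labelled. The kidney origin was clear from Lrp2, the proximal tubule endocytic receptor, at 53235 to 85850 normalized counts in Arhgef11Sglt2 and 100570 to 119977 in Sglt2Cre libraries. No member was at the floor of the scale in any library. A mean under 100 normalized counts over the 8 libraries was found for 8 members, Cd163, Folr2, Trem2, Gpnmb, Arg1, S100a8, S100a9 and Retnlg, and their log2 differences on the deposited scale are compressed.

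Transcripts of 1 member passed the test: Retnlg, a resistin-like protein gene of mouse neutrophils, was higher in Arhgef11Sglt2 kidneys. No member was called lower. Over all 15948 genes, limma with Benjamini-Hochberg adjustment at 0.05 called 0.627% higher and 1.59% lower, and the members' counts of 1 higher (2.38% of 42) and 0 lower are too few to read against these shares. Without adjustment, 9 members (21.4%) had a limma p under 0.05, the rate of all genes (21.1%). The groups did not overlap for 4 members, all higher in Arhgef11Sglt2 kidneys: Retnlg, Gpnmb, Cd14 and Cd163. That is 9.52% of the members, against 6.2% of all genes higher without overlap, and 0 members were lower without overlap, against 8.14% of all genes. Differences were positive for 25 members and negative for 17, with a median log2 difference of 0.08 on the deposited scale, against -0.01 over all genes.

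**Figure D1:**
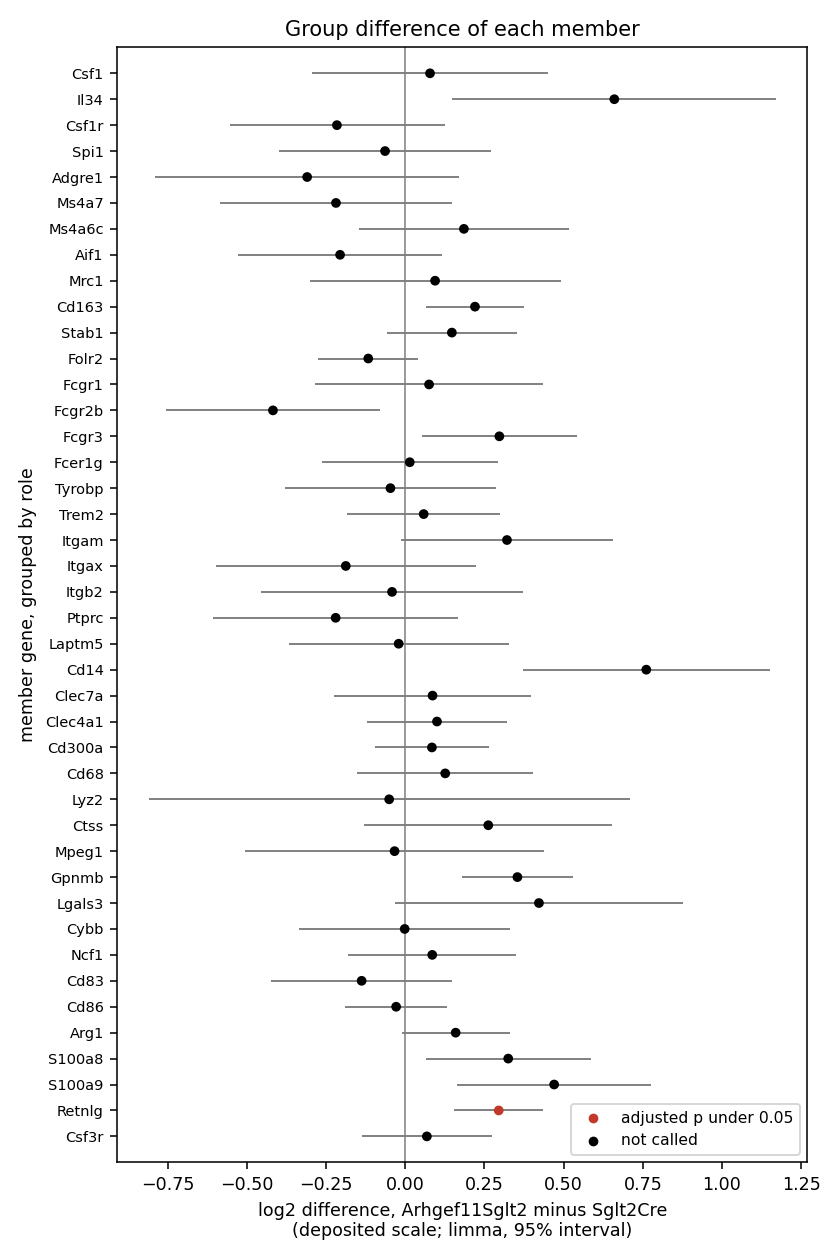
Log2 difference, Arhgef11Sglt2 minus Sglt2Cre, of each of the 42 members on the deposited scale (points) with its 95% interval from limma (bars), ordered by role. Retnlg is the 1 member with an adjusted p under 0.05 (red), and Cd14 has the highest difference, 0.76.

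The neutrophil members were the role group with the highest median difference, 0.31, and all 4 had positive differences. In Arhgef11Sglt2 replicates 1, 2 and 3, Retnlg had 25.9, 38.5 and 37.2 normalized counts, and in Sglt2Cre replicates 1 to 5 it had 7.41, 17.7, 2.35, 2.81 and 2.70. Every Arhgef11Sglt2 library was thus above every Sglt2Cre library. Retnlg averaged 33.9 ± 6.91 normalized counts in Arhgef11Sglt2 and 6.60 ± 6.56 in Sglt2Cre kidneys (SD), a 5.13-fold difference, with a log2 difference of 0.30 (SE 0.06) on the deposited scale, a limma adjusted p of 0.0467 and a two-sided exact permutation p of 0.0357, the smallest that the 56 splits allow. Its counts were small: an estimated 34.9 to 44.0 reads in Arhgef11Sglt2 and 2.01 to 17.8 reads in Sglt2Cre libraries. The call was lost, with adjusted p of 0.0785 to 0.171, when Arhgef11Sglt2 replicate 2 or 3 or Sglt2Cre replicate 1, 3, 4 or 5 was left out, and held without Arhgef11Sglt2 replicate 1 (adjusted p = 0.0335) and without Sglt2Cre replicate 2 (adjusted p = 0.0216). It was also lost with a block for library number range (limma adjusted p = 0.0528), without the variance trend (0.0615) and on log2(normalized count + 1) (0.0611).

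S100a8 and S100a9 encode the subunits of calprotectin, the main cytosolic protein of neutrophils. S100a9 had 218.5, 149.4 and 115.4 normalized counts in Arhgef11Sglt2 replicates 1, 2 and 3, and 26.6, 150.4, 37.6, 22.6 and 39.3 in Sglt2Cre replicates 1 to 5. For S100a8 the values were 130.8, 63.0 and 89.6 in the Arhgef11Sglt2 libraries, against 24.4, 95.02, 41.5, 15.5 and 13.6 in the Sglt2Cre libraries. In both genes 1 control library, Sglt2Cre replicate 2, lay within the Arhgef11Sglt2 range, and the other 4 lay below it. The fold was 2.91 for S100a9 (log2 difference 0.47, SE 0.14, limma adjusted p = 0.101) and 2.49 for S100a8 (0.33, SE 0.12, limma adjusted p = 0.157). With Sglt2Cre replicate 2 left out, S100a9 passed (log2 difference 0.58, limma adjusted p = 0.0161) and S100a8 had an adjusted p of 0.0512. Leaving out the highest control can only raise the difference, so these values are no added support. S100a9 passed in no other fit with 1 library left out, and S100a8 in none. Retnlg was also highest among the controls in Sglt2Cre replicate 2. Csf3r, the receptor for granulocyte colony-stimulating factor, had 222.7, 111.4 and 131.8 normalized counts in Arhgef11Sglt2 replicates 1, 2 and 3 and 105.8 to 183.3 in Sglt2Cre kidneys, and the groups overlapped (1.17-fold, limma adjusted p = 0.713).

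**Figure D2:**
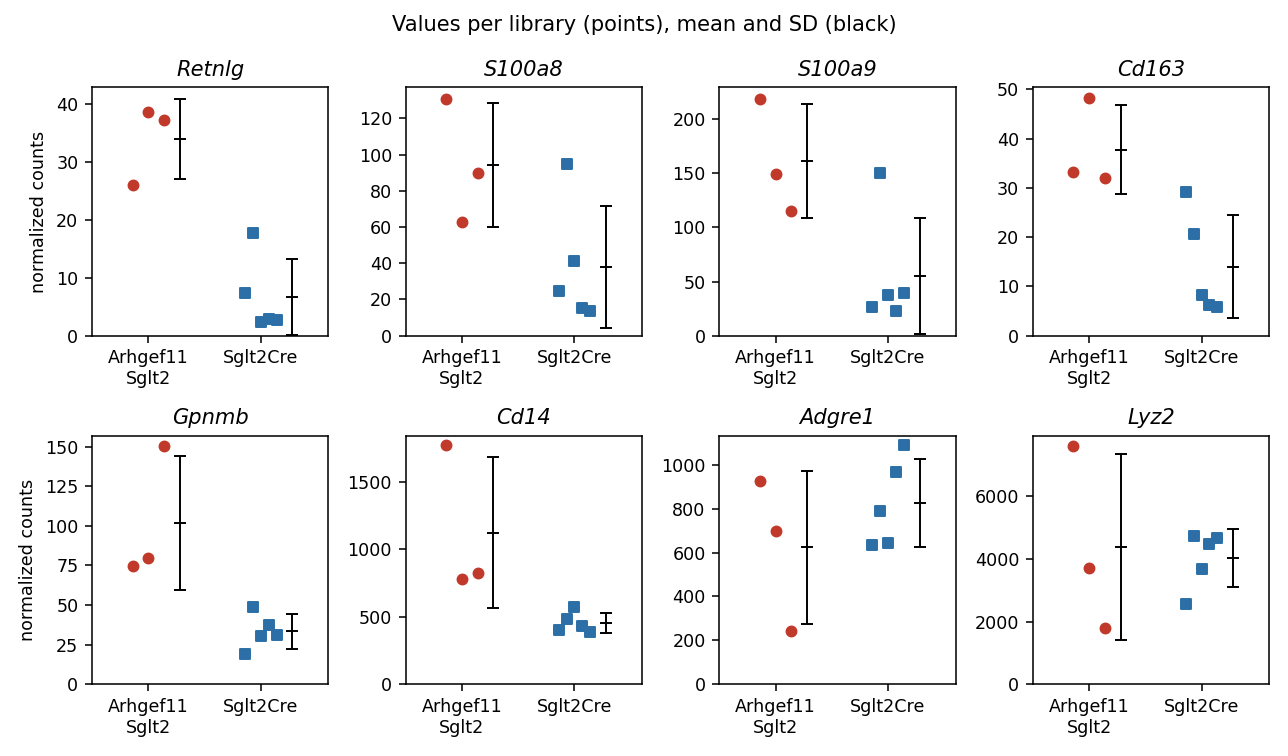
Normalized counts per library of 8 members, Arhgef11Sglt2 (red circles, replicates 1 to 3 from left to right) and Sglt2Cre (blue squares, replicates 1 to 5 from left to right), with the mean and SD beside each group. Retnlg, Cd163, Gpnmb and Cd14 do not overlap between groups, S100a8 and S100a9 overlap through Sglt2Cre replicate 2, and Adgre1 and Lyz2 spread from 243.5 to 927.8 and from 1789 to 7615 within the Arhgef11Sglt2 group.

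Promoter windows from 250 bases before to 50 bases after the gene start were available for 33 of the 43 listed genes (38 windows, RefSeq, build GRCm38.p6, an older build than the submitters' GRCm39). PU.1, C/EBP and AP-1 are transcription factor families active in myeloid cells, and their short motifs were searched on both strands. The PU.1 motif AGGAAGT was in 9 of 38 windows (23.7%), against 9.35% of 32851 windows of all genes. The C/EBP motif TTGCNNAA was in 7 (18.4%), against 10.8% of all windows, and the AP-1 motif TGANTCA was in 7 (18.4%), against 7.81%. Overlapping windows of the same gene count a shared match more than once, as for Ptprc (PU.1) and Fcgr3 (C/EBP). Matches of different motifs overlapped in 0 member windows. Lyz2 was the member whose libraries spread most in normalized counts. Windows of 4 genes follow, with the match in capitals. These windows belong to the called member Retnlg and the calprotectin gene S100a9 (C/EBP), to Gpnmb (AP-1) and to Lyz2 (PU.1). They lie at chr16:48872358-48872657, plus strand (Retnlg), chr3:90695672-90695971, minus strand (S100a9), chr6:49036268-49036567, plus strand (Gpnmb) and chr10:117282223-117282522, minus strand (Lyz2), and are written along the gene's own strand. A match is a description of letters and no evidence of binding.
Retnlg: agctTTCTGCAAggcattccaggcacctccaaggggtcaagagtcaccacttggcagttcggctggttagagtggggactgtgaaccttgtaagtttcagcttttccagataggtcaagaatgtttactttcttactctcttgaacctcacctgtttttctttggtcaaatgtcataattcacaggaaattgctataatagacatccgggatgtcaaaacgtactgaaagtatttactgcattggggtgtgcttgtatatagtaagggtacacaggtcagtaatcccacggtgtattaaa
S100a9: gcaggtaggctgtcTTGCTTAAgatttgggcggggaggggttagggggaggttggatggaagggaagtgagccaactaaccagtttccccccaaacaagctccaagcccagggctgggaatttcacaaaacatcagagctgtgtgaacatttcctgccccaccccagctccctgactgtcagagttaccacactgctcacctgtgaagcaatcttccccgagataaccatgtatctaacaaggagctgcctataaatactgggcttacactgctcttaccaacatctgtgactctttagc
Gpnmb: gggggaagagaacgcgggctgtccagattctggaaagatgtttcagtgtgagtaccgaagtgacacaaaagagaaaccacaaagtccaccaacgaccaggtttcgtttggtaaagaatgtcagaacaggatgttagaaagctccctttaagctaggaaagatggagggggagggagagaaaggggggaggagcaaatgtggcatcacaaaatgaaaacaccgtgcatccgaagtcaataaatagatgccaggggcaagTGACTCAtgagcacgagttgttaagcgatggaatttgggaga
Lyz2: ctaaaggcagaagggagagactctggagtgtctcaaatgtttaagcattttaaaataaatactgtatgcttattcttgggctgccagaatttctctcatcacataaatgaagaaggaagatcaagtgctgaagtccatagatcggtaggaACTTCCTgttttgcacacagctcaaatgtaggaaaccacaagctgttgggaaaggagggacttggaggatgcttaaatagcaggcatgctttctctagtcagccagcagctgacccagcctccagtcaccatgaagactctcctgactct

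Outside the neutrophil genes, the members with no overlap were a lysosomal glycoprotein, a lipopolysaccharide co-receptor and a scavenger receptor. Gpnmb, a transmembrane glycoprotein of lipid-laden and debris-clearing macrophages, had 74.8, 79.8 and 150.2 normalized counts in Arhgef11Sglt2 replicates 1, 2 and 3 and 19.4, 48.8, 30.4, 37.7 and 30.9 in Sglt2Cre replicates 1 to 5. The lowest Arhgef11Sglt2 library was above the highest control. The means were 101.6 ± 42.2 in Arhgef11Sglt2 and 33.4 ± 10.8 in Sglt2Cre kidneys (SD, n = 3 and 5), 3.04-fold, and the log2 difference of 0.35 (SE 0.08) had a limma adjusted p of 0.0512. Cd14, the co-receptor that hands lipopolysaccharide to TLR4 and that injured tubule cells can also express, had 1771, 777.1 and 823.8 normalized counts in Arhgef11Sglt2 replicates 1, 2 and 3 and 404.5, 481.6, 574.0, 430.7 and 384.3 in Sglt2Cre replicates 1 to 5. Replicate 1 was the highest of the 8, and the other Arhgef11Sglt2 libraries were also above every control. The fold was 2.47, and 1.76 without Arhgef11Sglt2 replicate 1, with a log2 difference of 0.76 (SE 0.17) and a limma adjusted p of 0.0559.

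Cd163, the haemoglobin scavenger receptor of resident macrophages, was low throughout. It had 33.2, 48.2 and 32.01 normalized counts in Arhgef11Sglt2 replicates 1, 2 and 3, and 29.1, 20.7, 8.22, 6.14 and 5.87 in Sglt2Cre replicates 1 to 5. The groups were separate, but Sglt2Cre replicate 1 lay close below the lowest Arhgef11Sglt2 library. The fold was 2.70 and the log2 difference 0.22 (SE 0.07), with a limma adjusted p of 0.121. In reads, these levels corresponded to an estimated 37.8 to 54.3 in Arhgef11Sglt2 and 4.38 to 27.6 in Sglt2Cre libraries. Two-sided exact permutation gave p = 0.0357, unadjusted, for each of Gpnmb, Cd14 and Cd163. That p is fixed for any gene whose groups do not overlap, so it adds nothing to the separation already described.

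The growth factor axis showed a ligand with a positive difference that did not pass and a receptor with a negative one. Il34 had 2453, 832.9 and 1616 normalized counts in Arhgef11Sglt2 replicates 1, 2 and 3 and 537.7, 672.9, 1043, 875.5 and 915.6 in Sglt2Cre replicates 1 to 5. Replicates 1 and 3 were above every control and replicate 2 was among them. Il34 was 2.02-fold higher by means, with a log2 difference of 0.66 (SE 0.23) and a limma adjusted p of 0.147, and of the settings run it passed only without Arhgef11Sglt2 replicate 2 (0.97, limma adjusted p = 0.031). Csf1, the other ligand, had 1665, 1011 and 807.1 normalized counts in Arhgef11Sglt2 replicates 1, 2 and 3, against 786.7 to 1366 in Sglt2Cre kidneys (1.11-fold, limma adjusted p = 0.827). Csf1r had 2834, 2859 and 1714 in Arhgef11Sglt2 replicates 1, 2 and 3 and 2418 to 3589 in Sglt2Cre kidneys (0.849-fold, log2 difference -0.22, limma adjusted p = 0.449). Replicate 3 was the library below the control range. Spi1, the gene of PU.1, had 468.5, 306.6 and 136.3 in Arhgef11Sglt2 replicates 1, 2 and 3, against 254.9 to 396.8 in Sglt2Cre kidneys, so replicate 1 was above and replicate 3 below all controls (0.963-fold, limma adjusted p = 0.845).

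Genes that identify macrophages showed no called difference and a wide spread among the Arhgef11Sglt2 libraries. Adgre1, which encodes the F4/80 antigen, had 927.8, 699.4 and 243.5 normalized counts in Arhgef11Sglt2 replicates 1, 2 and 3 and 633.6, 787.4, 642.6, 965.7 and 1089 in Sglt2Cre replicates 1 to 5. Replicates 1 and 2 were within the control range, and replicate 3 was below it (log2 difference -0.31, SE 0.22, limma adjusted p = 0.443). Aif1, the gene of the actin-binding protein IBA1, had 303.4, 131.0 and 68.6 in Arhgef11Sglt2 replicates 1, 2 and 3, against 169.6 to 292.1 in Sglt2Cre kidneys. Of the settings run it was called lower only without Arhgef11Sglt2 replicate 1 (log2 difference -0.41, limma adjusted p = 0.0466), and its adjusted p was 0.445 with all libraries. The membrane-spanning proteins Ms4a7 (0.728-fold, limma adjusted p = 0.475) and Ms4a6c (1.34-fold, limma adjusted p = 0.508) differed in sign. Among the resident and scavenger receptors, the mannose receptor Mrc1 had 1052, 688.5 and 351.0 in Arhgef11Sglt2 replicates 1, 2 and 3 and 482.9 to 746.6 in Sglt2Cre kidneys, while Stab1, a clearance receptor also of endothelium, had 1823 to 2411 in Arhgef11Sglt2 and 1686 to 2122 in Sglt2Cre kidneys. The folate receptor Folr2 had 51.0, 44.5 and 15.4 in Arhgef11Sglt2 replicates 1, 2 and 3, against 37.4 to 64.1 in Sglt2Cre kidneys (limma adjusted p = 0.374).

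Among the Fc receptors, the inhibitory and an activating receptor differed in sign. Fcgr2b, the inhibitory receptor for IgG, had 2355, 1649 and 1170 normalized counts in Arhgef11Sglt2 replicates 1, 2 and 3 and 2029, 2505, 2288, 2597 and 2619 in Sglt2Cre replicates 1 to 5. Replicates 2 and 3 were below every control. It had the most negative difference of the members, -0.42 (SE 0.15, 0.716-fold, limma adjusted p = 0.158), and was called lower in the fit without Arhgef11Sglt2 replicate 1 (-0.62, limma adjusted p = 0.0217). Fcgr3, an activating IgG receptor, had 999.7, 790.2 and 610.8 in Arhgef11Sglt2 replicates 1, 2 and 3 and 492.0, 685.4, 566.3, 612.6 and 476.8 in Sglt2Cre replicates 1 to 5. Its replicates 1 and 2 were above every control (1.41-fold, log2 difference 0.30, SE 0.11, limma adjusted p = 0.163). The high-affinity receptor Fcgr1, the signalling adaptors Fcer1g and Tyrobp, and the lipid receptor Trem2 each had their highest value of the 8 libraries in Arhgef11Sglt2 replicate 1 and their lowest in replicate 3. For Trem2 these were 158.4 and 32.8 normalized counts, against 56.2 to 93.5 in Sglt2Cre kidneys. Folds of these 4 genes lay between 0.987 and 1.27, with limma adjusted p of 0.804 to 0.962.

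The integrin and pan-leukocyte members also differed in sign. Itgam, which encodes CD11b, had 964.8, 589.5 and 430.1 normalized counts in Arhgef11Sglt2 replicates 1, 2 and 3 and 399.7, 479.1, 507.3, 494.1 and 292.1 in Sglt2Cre replicates 1 to 5. Replicates 1 and 2 exceeded all controls (1.52-fold, log2 difference 0.32, SE 0.15, limma adjusted p = 0.258). Its partner chain Itgb2 (0.979-fold, limma adjusted p = 0.924), the CD11c chain Itgax (0.791-fold, 0.594), the leukocyte phosphatase Ptprc (0.828-fold, 0.501) and the lysosomal protein Laptm5 (1.0-fold, 0.955) had negative log2 differences of -0.02 to -0.22. In all 4 of them Arhgef11Sglt2 replicate 3 was the lowest of the 8 libraries. The lectin receptors Clec7a (1.14-fold), Clec4a1 (1.22-fold) and the inhibitory receptor Cd300a (1.18-fold) had limma adjusted p of 0.589 to 0.768. Cd300a ran the other way from most members, with 133.6, 131.2 and 184.2 normalized counts in Arhgef11Sglt2 replicates 1, 2 and 3 and 74.8 to 160.2 in Sglt2Cre kidneys.

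Lysosomal and effector genes held the member with the widest spread in normalized counts. Lyz2, the lysozyme of macrophages and neutrophils, had 7615, 3724 and 1789 normalized counts in Arhgef11Sglt2 replicates 1, 2 and 3 and 2546, 4740, 3679, 4469 and 4668 in Sglt2Cre replicates 1 to 5. Replicate 1 was the highest of the 8 libraries and replicate 3 the lowest, and the group means were 4376 ± 2967 in Arhgef11Sglt2 and 4021 ± 925.9 in Sglt2Cre kidneys (SD). The pore-forming protein Mpeg1, the NADPH oxidase subunits Cybb and Ncf1 and the cysteine protease Ctss had folds of 1.0 to 1.27 and limma adjusted p of 0.425 to 0.996. Cd68, a lysosomal membrane protein, had 719.4, 341.7 and 432.0 in Arhgef11Sglt2 replicates 1, 2 and 3 and 352.0 to 488.4 in Sglt2Cre kidneys. Lgals3 encodes galectin-3, which macrophages and injured epithelium make, and had 4903, 2718 and 6081 in Arhgef11Sglt2 replicates 1, 2 and 3, against 3304, 3583, 3422, 3012 and 2395 in Sglt2Cre replicates 1 to 5. Here replicates 1 and 3 were above every control, and replicate 2 was not (1.45-fold, limma adjusted p = 0.271, and 0.0357 without replicate 2).

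The activation and polarization genes were low and did not pass. Cd83, a marker of mature dendritic cells, had 217.1, 96.8 and 93.8 normalized counts in Arhgef11Sglt2 replicates 1, 2 and 3 and 115.4 to 294.8 in Sglt2Cre kidneys (0.767-fold, limma adjusted p = 0.573). The co-stimulatory ligand Cd86 had 131.3 to 194.6 in Arhgef11Sglt2 and 141.9 to 221.0 in Sglt2Cre kidneys (0.946-fold, limma adjusted p = 0.855). Arg1, an arginase of alternatively activated macrophages in mice, had 56.1, 46.2 and 13.7 in Arhgef11Sglt2 replicates 1, 2 and 3, against 8.58 to 27.0 in Sglt2Cre kidneys (2.20-fold, limma adjusted p = 0.27). Replicate 3 again lay apart from the others of its group, within the control range.

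The members went apart library by library within the Arhgef11Sglt2 group. Replicate 1 was above all 5 controls for 32 members (76.2%), against 22.5% of all genes. It was the highest of the 8 libraries for 28 members (66.7%), against 2227 of all 15948 genes. Replicate 3 was below all controls for 22 members (52.4%), against 33.3% of all genes, and above all controls for 7 (16.7%), against 28.6%. Both held for 14 members (33.3%), against 5.14% of all genes: Spi1, Aif1, Mrc1, Fcgr1, Fcer1g, Tyrobp, Trem2, Itgb2, Laptm5, Clec7a, Lyz2, Mpeg1, Cybb and Ncf1. Replicate 2 was within the control range for 27 members (64.3%), against 8408 of all 15948 genes. Averaged over the 42 members, the log2 value relative to the Sglt2Cre mean was 0.38, 0.02 and -0.16 in Arhgef11Sglt2 replicates 1, 2 and 3, and -0.11 to 0.08 in the Sglt2Cre libraries. The 7 members above all controls in replicate 3 were Il34, Cd163, Cd14, Cd300a, Gpnmb, Lgals3 and Retnlg, and 13 were within the control range there, Fcgr3 among them. The neutrophil members averaged 0.41, 0.22 and 0.24 in Arhgef11Sglt2 replicates 1, 2 and 3, and -0.09 to 0.23 in Sglt2Cre libraries.

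**Figure D3:**
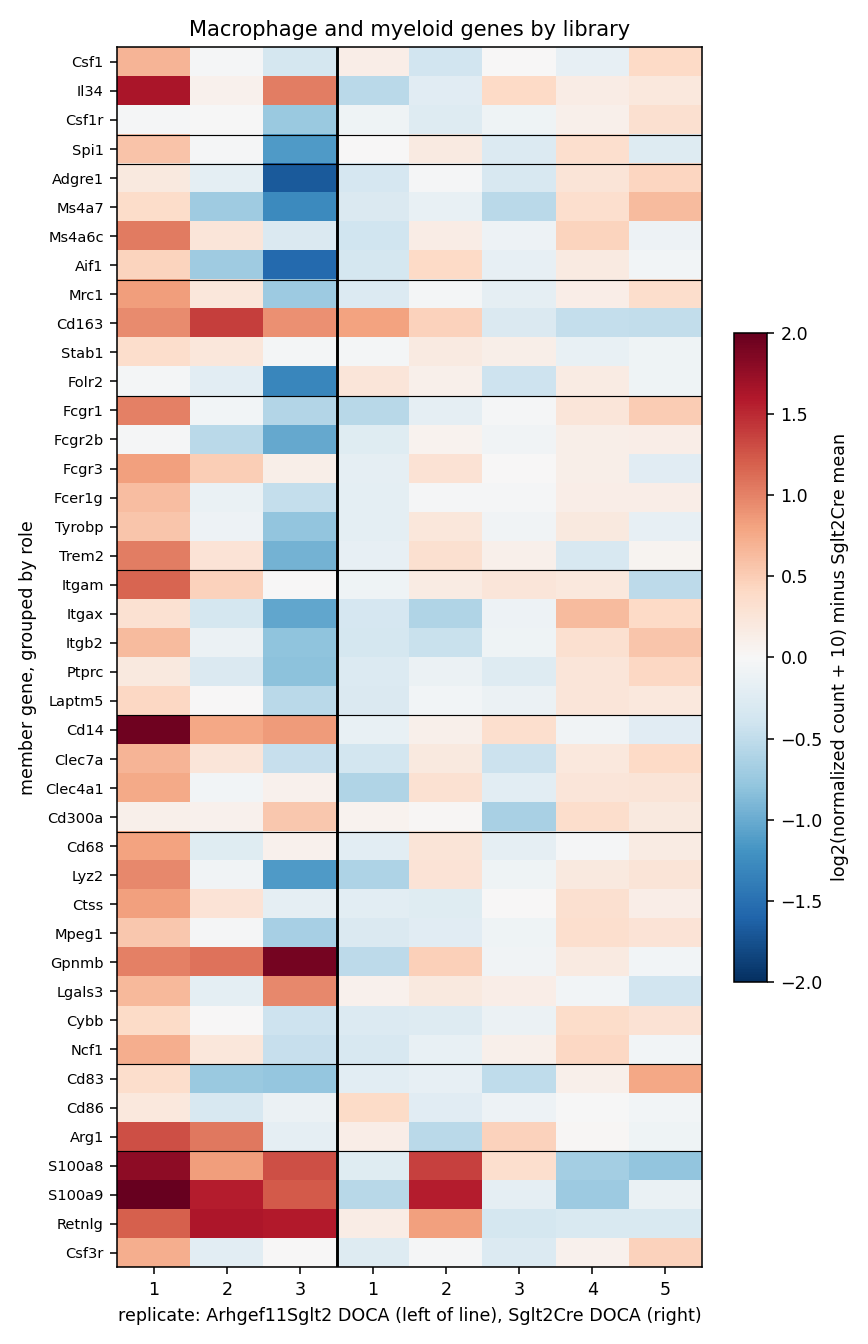
Log2 of the normalized count plus 10, relative to the Sglt2Cre mean, of each of the 42 members (rows, by role) in the 8 libraries (columns, Arhgef11Sglt2 left of Sglt2Cre), with colours cut at -2 and 2, which 1 value exceeds. Replicate 1 of Arhgef11Sglt2 is above all controls for 32 members and replicate 3 below all controls for 22.

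Markers of other kidney cells also differed between these libraries. The 13 tubule injury genes averaged 1.19, 0.41 and 0.57 in Arhgef11Sglt2 replicates 1, 2 and 3, and -0.35 to 0.17 in Sglt2Cre libraries, with summed levels of 439314 to 945127 normalized counts in Arhgef11Sglt2 and 175120 to 602563 in Sglt2Cre. All 13 had positive differences and 3 were called higher (Lcn2, Krt20 and Gdf15). Most of the injury sum in every library was Spp1 alone, named after its values were seen. Spp1 had 343256 to 810293 in Arhgef11Sglt2 and 130534 to 512083 in Sglt2Cre libraries and was not called (limma adjusted p = 0.212). The 9 fibroblast genes averaged 0.30, -0.10 and -0.73 in Arhgef11Sglt2 replicates 1, 2 and 3, the same order of the 3 libraries as the members, and -0.10 to 0.14 in Sglt2Cre libraries, with sums of 19530 to 61940 in Arhgef11Sglt2 and 39043 to 49546 in Sglt2Cre. The 9 proximal tubule genes averaged -0.96, -0.79 and -1.20 in Arhgef11Sglt2 replicates 1, 2 and 3 and -0.31 to 0.19 in Sglt2Cre libraries, and 5 of them were called lower. None of these marker genes was at the floor. Their part in the myeloid values was not tested.

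**Figure D4:**
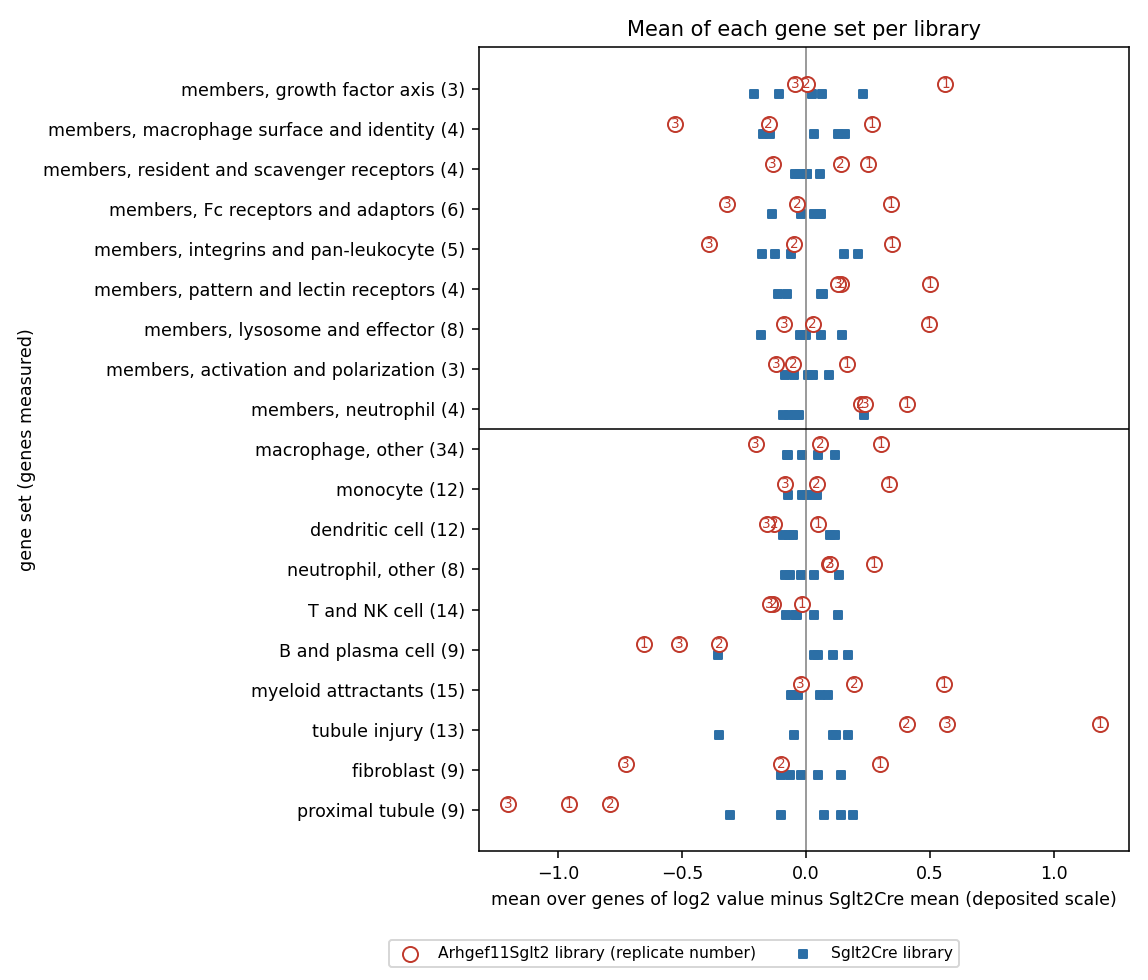
Mean log2 value relative to the Sglt2Cre mean (deposited scale) of each gene list, 1 point per library, for role groups of the members (above the line) and for other lists (below it), with the number of genes measured. Arhgef11Sglt2 libraries (red circles) carry their replicate number. Replicate 1 is above replicate 3 in every role group of members shown, and the neutrophil members are at 0.22 or more in each of the 3. The neutrophil members are at 0.23 in Sglt2Cre replicate 2, so the groups overlap.

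The library names carry numbers that fall in a lower and a higher range, and the labels say that the kidneys came from 2 of the authors' studies without assigning samples to them. Arhgef11Sglt2 replicates 1 and 2 and Sglt2Cre replicates 1 to 3 are in the lower range, and Arhgef11Sglt2 replicate 3 and Sglt2Cre replicates 4 and 5 in the higher. In the lower range 38 of 42 members had a positive difference (median 0.21), and in the higher range 29 were negative (median -0.31). Over all genes the medians were -0.0 in the lower and -0.021 in the higher range, and signs within each range were not counted. The higher range holds 1 Arhgef11Sglt2 library, so its difference cannot be told apart from that library. Adgre1 had a log2 difference of 0.15 in the lower and -1.15 in the higher range, Lyz2 0.53 and -1.14, and Csf1r 0.10 and -0.79. S100a9 had 0.47 and 0.44 and Il34 0.70 and 0.61. Retnlg (0.24 and 0.38), Cd14 (0.83 and 0.59), Gpnmb (0.27 and 0.53) and Cd163 (0.18 and 0.28) were positive in each, a sign that is fixed for genes whose groups do not overlap. For the difference between the ranges itself, 0 members passed in limma over all genes (lowest adjusted p = 0.126), and 23 had an unadjusted p under 0.05, against 13.4% of all genes. Within the higher range limma called 8 members (19.0%), against 7.61% of all genes, on the assumption that a lone library varies like the others. These calls describe that library and are no test of the group.

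**Figure D5:**
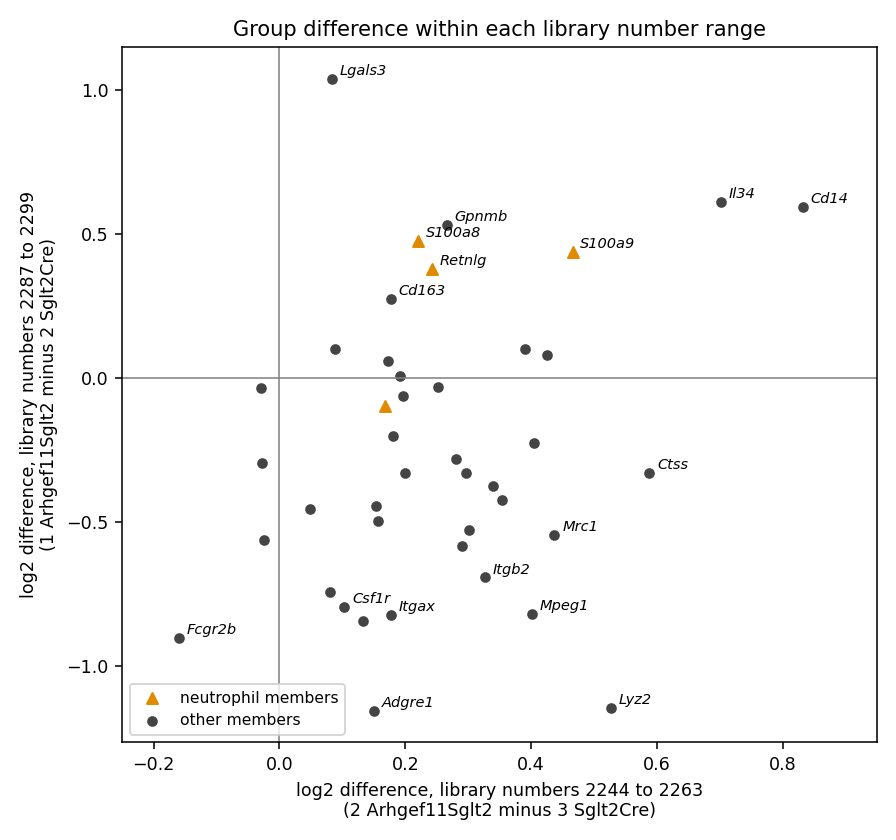
Log2 difference, Arhgef11Sglt2 minus Sglt2Cre, of each member within the lower range of library numbers (x axis) and within the higher range (y axis), on the deposited scale. The 25 members at the lower right are positive in the lower range and negative in the higher, and 3 of 4 neutrophil members (triangles) are positive in both.

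No gene of the other myeloid cell lists passed. Of 34 further macrophage genes measured (38 listed), 0 were called. The smallest p belonged to Ms4a4a, with 48.3, 32.1 and 31.3 normalized counts in Arhgef11Sglt2 replicates 1, 2 and 3 and 10.8 to 18.0 in Sglt2Cre kidneys (2.74-fold, limma adjusted p = 0.0635), and to the lipoprotein gene Apoe, with 15560 to 18777 in Arhgef11Sglt2 and 10077 to 13690 in Sglt2Cre kidneys (1.39-fold, adjusted p = 0.0649). Neither overlapped between groups, and 6.2% of all genes were likewise higher without overlap. This list averaged 0.30, 0.06 and -0.20 in Arhgef11Sglt2 replicates 1, 2 and 3, and -0.08 to 0.12 in Sglt2Cre libraries, near the members' own means. Of 12 monocyte and 12 dendritic cell genes, 0 were called in either list. Differences were positive for 7 and negative for 5 monocyte genes, and positive for 3 and negative for 9 dendritic cell genes. The smallest p of the monocyte list belonged to Ace, the angiotensin-converting enzyme, which proximal tubule and endothelium also express, with 5501, 3957 and 3833 in Arhgef11Sglt2 replicates 1, 2 and 3, against 5424 to 8692 in Sglt2Cre kidneys (0.659-fold, limma adjusted p = 0.0847). The chitinase-like gene Chil3 had a fold of 3.49 (adjusted p = 0.135), and Ly6c2 had a fold of 0.535 (limma adjusted p = 0.241). In the dendritic cell list the smallest p values belonged to Cd209a, a lectin of monocyte-related dendritic cells, with 37.3, 9.42 and 15.5 in Arhgef11Sglt2 replicates 1, 2 and 3, against 32.5 to 93.0 in Sglt2Cre kidneys (0.375-fold, limma adjusted p = 0.152), and to Clec9a. Clec9a, a receptor of cross-presenting dendritic cells, had 90.0, 34.6 and 17.9 in Arhgef11Sglt2 replicates 1, 2 and 3, against 56.1 to 285.7 in Sglt2Cre kidneys (0.316-fold, adjusted p = 0.167). The 8 further neutrophil genes measured of 16 listed had 0 calls, 7 positive differences and 1 negative. Of these 8, 3 were higher without overlap, against 6.2% of all genes, and 8 genes are too few to read against this share. Lrg1, a secreted glycoprotein of neutrophil granules that other cells also make, had the smallest p, with 700.4, 398.0 and 530.9 in Arhgef11Sglt2 replicates 1, 2 and 3, against 87.1 to 310.1 in Sglt2Cre kidneys (2.53-fold, limma adjusted p = 0.0559). Cxcr2, the neutrophil chemokine receptor, had 35.0, 30.1 and 20.3 in Arhgef11Sglt2 replicates 1, 2 and 3, against 2.79 to 13.7 in Sglt2Cre kidneys (2.96-fold, limma adjusted p = 0.093), and the collagenase Mmp8 had 15.96 to 22.8 in Arhgef11Sglt2 and 4.21 to 14.1 in Sglt2Cre kidneys (2.32-fold, adjusted p = 0.171). These were the other 2 without overlap. The neutrophil-defining Ly6g, Ngp and Camp were not analysed here.

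Of 15 chemoattractants of myeloid cells measured, 1 was called. Cxcl1, a ligand of CXCR2 that tubule cells can secrete, had 706.1, 234.9 and 373.0 normalized counts in Arhgef11Sglt2 replicates 1, 2 and 3 and 106.0, 86.2, 158.1, 164.2 and 81.7 in Sglt2Cre replicates 1 to 5, and was higher (3.67-fold, log2 difference 0.74, SE 0.16, limma adjusted p = 0.0484). Ccl2, the main monocyte chemokine, had 265.1, 97.9 and 61.1 in Arhgef11Sglt2 replicates 1, 2 and 3 and 81.8 to 187.0 in Sglt2Cre kidneys (1.07-fold, adjusted p = 0.983), and was named after its values were seen. The complement gene C3 had 57686, 34447 and 12252 in Arhgef11Sglt2 replicates 1, 2 and 3 and 6129 to 16866 in Sglt2Cre kidneys (3.48-fold, adjusted p = 0.0986), highest in replicate 1 like 28 of the members. Of 8 colony-stimulating factor genes measured, which include 4 members, 0 were called. Lymphoid genes mostly had negative differences. All 14 T and NK cell genes had negative differences, of -0.23 to -0.005, with 0 calls. Each had a mean under 100 normalized counts over the 8 libraries, and Ncr1 was at the floor in at least 1 library. Of 9 B and plasma cell genes, 2 were called lower, Jchain and Igkc, against 1.59% of all genes. In Sglt2Cre replicate 2, Jchain had 699.9 and Igkc 2083 normalized counts, close to Arhgef11Sglt2 replicate 2 (664.7 and 2068). The other Sglt2Cre libraries had 2451 or more and 6508 or more. Summed T and NK levels were 358.3 to 602.1 normalized counts in Arhgef11Sglt2 and 503.1 to 989.0 in Sglt2Cre libraries. Of 8 endothelial genes 0 were called, and of 6 mast cell genes listed 1 was measured, Kit, which was not called and which other kidney cells also express.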

How the data were processed

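Per the labels' protocols, stranded poly(A) libraries of 8 kidneys were sequenced paired-end in a single pool. Per the submitters' processing notes, the authors used Salmon 1.10.0, DESeq2 and the build GRCm39. The deposited values of 15948 genes are log2 and variance-stabilized, as read from the numbers themselves: all 8 columns share a minimum of 8.1275, the value of a zero count. The transformation was inverted to normalized counts, and folds are ratios of group means of these. Of low values (at most 5 steps), 30.7% to 55.0% per library were whole reads to within 0.02, against 4% by chance for a step fixed in advance. The step was chosen for a large share, so 4% is too low a chance level here. Counts were not recovered, and intervals for counting error are not given. Tests and log2 differences use the deposited scale, which compresses low genes.

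The model was limma 3.58.1 (R 4.3.3) with group as its only term and a variance trend, 6 residual degrees of freedom, and Benjamini-Hochberg adjustment over all genes at 0.05. Single genes also had an exact permutation test. The labels do not say that samples are separate animals, so p-values reflect only the variation among the samples, which may be technical. Symbols matched 15902 identifiers (99.71%). The members and the 13 other lists were chosen with earlier results of these data known; named genes were all members, and, of other lists, those called and up to 4 with the smallest p. Reads of near-identical paralogs (Fcgr, Ms4a and Clec families) may be shared. Alternatives were filters at 1 and 5 CPM, blocks, variance settings, sample weights, pseudocounts of 1 and 10, equal totals, a threshold of 0.1 and each library left out.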

Additional observations from a re-analysis of the deposited data

Results flagged for a closer look

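S100a9 in Sglt2Cre replicate 2, at 150.4 normalized counts, stood far from the other 4 Sglt2Cre libraries, of which the next had 39.3 and the lowest 22.6. The gap was 0.87 of the range of the group, past Dixon's 95% limit for 5 samples. Chance passes that limit in about 1 in 20 groups, and the 42 members were each examined once, in the Sglt2Cre group. S100a8 and Retnlg were also highest among the Sglt2Cre libraries in this library, at 95.02 and 17.7 normalized counts.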

How the results depend on the processing

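The count of called members was small and moved with the settings. It was 1 with all libraries (Retnlg) and 0 without the variance trend. With a filter at 1 CPM it was 0, and at 5 CPM it was 1 (Cd14). Retnlg lay below both filters and was not tested under them, nor was Gpnmb at 5 CPM. The count was also 1 on log2(normalized count + 1) (Cd14) and with a block for library number range (Gpnmb). It was 4 with sample weights, and 0 to 5 with 1 library left out. It was 3 (Retnlg, Gpnmb and Cd14) on log2(normalized count + 10), with equal library totals or at an adjusted p of 0.1. Fitting within the lower range of library numbers gave 0 called members of 0 called genes (median member difference 0.21), and within the higher range 8 of 1213 (median -0.31), both chosen after seeing the data. Over all genes, 354 were called with all libraries, 874 with sample weights, 1038 at an adjusted p of 0.1, and 24 to 1332 with 1 library left out. The lowest count was without Sglt2Cre replicate 4, and counts moved past 1.5 times also without Arhgef11Sglt2 replicate 1 (1332) or 3 (45) and Sglt2Cre replicate 1 (187), 3 (135) or 5 (76). Equal totals turned the split of all calls to 164 higher and 215 lower (43.3% higher), against 100 and 254 (28.2%), and put the median of all genes at 0.02, against -0.01. The members' median ran from -0.081 (without Arhgef11Sglt2 replicate 1) to 0.205 (without replicate 3).

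With the replicate number as a block, 0 genes and 0 members were called and the members' median was 0.14. Same-numbered libraries did not deviate together (correlations of -0.17, -0.09 and -0.01), so they share only a number. Under this block the small differences of Itgax (0.008), Itgb2 (0.13), Laptm5 (0.10), Lyz2 (0.077), Mpeg1 (0.14) and Cybb (0.16) turned positive. Other sign changes were Fcer1g (-0.034) and Laptm5 (0.005) with sample weights, Laptm5 (0.003) and Cybb (0.033) with equal totals, and Cybb (0.005) with a block for library number range. With 1 library left out, 18 members changed sign in at least 1 fit, with log2 differences of -0.13 to 0.24 for Csf1, -0.24 to 0.14 for Spi1, -0.009 to 0.35 for Ms4a6c, -0.13 to 0.34 for Mrc1, -0.14 to 0.24 for Fcgr1, -0.17 to 0.15 for Fcer1g, -0.24 to 0.15 for Tyrobp, -0.079 to 0.21 for Trem2, -0.25 to 0.15 for Itgb2, -0.20 to 0.17 for Laptm5, -0.053 to 0.24 for Clec7a, -0.044 to 0.25 for Cd68, -0.51 to 0.40 for Lyz2, -0.29 to 0.23 for Mpeg1, -0.14 to 0.14 for Cybb, -0.049 to 0.23 for Ncf1, -0.083 to 0.017 for Cd86, -0.037 to 0.14 for Csf3r. The cause of these changes was not tested. Of 445 member values under the other settings, 417 kept their direction and side of the threshold, and of 336 with a library left out, 292 did. The 445 include the exact permutation tests, which take their direction from the main fit and an unadjusted p. With 1 of 42 members called in the main fit, most kept their side by staying uncalled. These counts are therefore no measure of how stable the calls are. With 3 libraries in the smaller group the exact permutation p cannot go below 0.0357, and depth limits Retnlg, Cd163 and Arg1, whose lowest libraries hold an estimated 2.01, 4.38 and 8.61 reads.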
